A study of Homo sapiens with 8 samples.

Results

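The genes described here carry the detection of foreign or misplaced DNA and RNA up to the point where interferon genes are switched on. They were the sensors CGAS and TLR3, the adaptors STING1 and MAVS, the kinases TBK1 and IKBKE, the transcription factor IRF3, and the enzymes TREX1 and SAMHD1, which keep nucleic acids below the level of detection. The members were listed by name and looked up by Ensembl ID in a count table of 57736 IDs. Of 9 listed genes, 8 had a row that could be matched to a symbol. IKBKE had no matched row and was not analysed here. All 8 matched genes passed the filter on low counts, which left 16657 genes for testing.

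The libraries came from RMG1, an established human line of ovarian clear cell carcinoma, in 4 groups of 2. These were cells with an ARID1A knockout made by CRISPR, wild-type cells, cells with a knockdown of CAPH2 by shRNA, and cells with a control shRNA. CAPH2 was wild type in the knockout cells, and ARID1A was wild type in the knockdown and shRNA control cells. ARID1A belongs to SWI/SNF, a complex that moves nucleosomes and binds DNA through this subunit, and CAPH2 is the protein of the gene NCAPH2, a subunit of condensin II. The labels are silent on whether the knockout cells were 1 clone, which shRNA sequences were used, and whether the 2 libraries of a group had separate cultures. The p-values below therefore rest on a spread between libraries that can be purely technical. Total counts per library ranged from 24559547 to 37378691.

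Levels are given as CPM, the count scaled by the size of its library. ARID1A RNA was at 6.66 and 5.61 CPM in knockout libraries, against 8.80 and 12.1 CPM in wild-type libraries, and NCAPH2 RNA was at 8.98 and 8.74 CPM in knockdown libraries, against 24.0 and 25.8 CPM in shRNA control libraries. Both fell in the group that targets them, with log2 fold changes of −0.77 (SE 0.16, adjusted p = 0.00274) for ARID1A and −1.49 (SE 0.10, adjusted p = 1.84e-06) for NCAPH2. NCAPH2 was also lower in the ARID1A knockout, with 21.0 and 23.9 CPM in knockout libraries, against 26.8 and 30.0 CPM in wild-type libraries (−0.34, SE 0.09, adjusted p = 0.0144). It did not pass on leaving out wild-type library 2 (−0.26) or knockout library 1 (−0.25). All tests were edgeR's quasi-likelihood test with Benjamini-Hochberg adjustment over all genes tested, and a gene was called changed at an adjusted p under 0.05. Epithelial identity genes were abundant in every group: the 8 matched markers of epithelium and ovarian clear cell carcinoma summed to between 3132.6 and 3668.0 CPM per library.

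As background, the pathway has separate entrances that meet at the same kinase. cGAS, the product of CGAS, binds DNA in the cytosol and makes the messenger cGAMP, which activates STING at the endoplasmic reticulum. RNA in the cytosol is read by RIG-I and MDA5, which signal through MAVS on mitochondria, and RNA in endosomes is read by TLR3, which signals through the adaptor TRIF, the product of TICAM1. All of them lead to TBK1 and the related kinase IKKε, the product of IKBKE, which phosphorylate IRF3, and IRF3 then enters the nucleus and turns on interferon beta and other genes. TREX1 degrades stray DNA and SAMHD1 breaks down the building blocks of DNA. Loss of either is known in people to cause Aicardi-Goutières syndrome, a disease with high interferon.

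The genes differed widely in level when counts were divided by transcript length. On the scale of CPM per kilobase of transcript, TBK1 was the most abundant, with 28.0 to 31.0 over the 8 libraries (median 29.1). CGAS (7.94 to 12.5, median 10.1), IRF3 (8.12 to 10.1, median 8.99) and SAMHD1 (6.12 to 8.33, median 6.88) followed, and the ranges of neighbours in that order overlapped. MAVS stood apart at 1.62 to 2.80 (median 2.65), below SAMHD1 and above the rest. TLR3 (0.331 to 0.745, median 0.622), STING1 (0.217 to 0.926, median 0.501) and TREX1 (0.323 to 0.757, median 0.434) were lowest and overlapped one another, so their order is not settled by these libraries. Per kilobase, RNA of the DNA sensor, the kinase and the transcription factor was thus far more abundant in every library than that of STING1, the adaptor that stands between sensor and kinase.

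**Figure D1:**
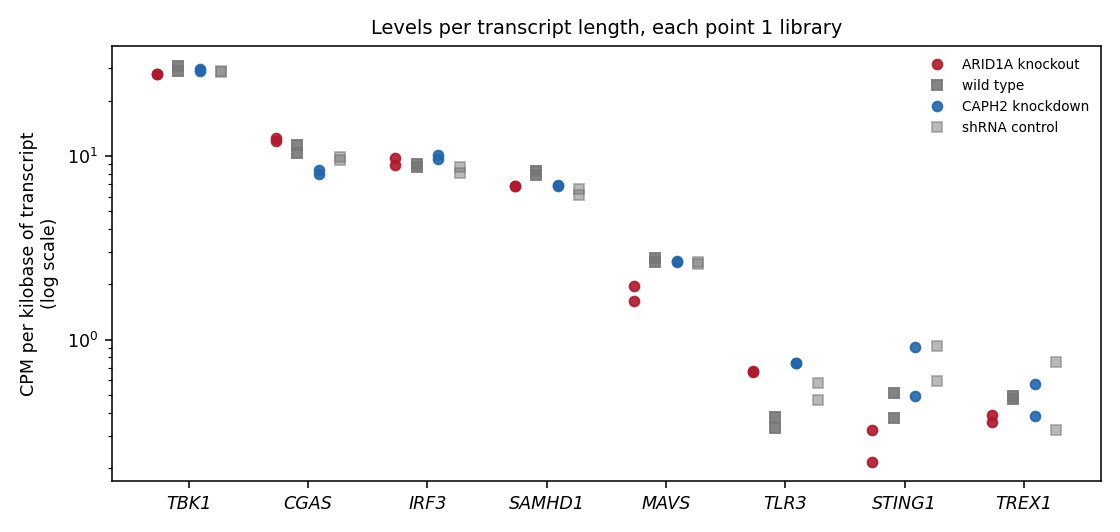
Level of each gene in CPM per kilobase of its longest principal transcript, on a log axis, with 1 point per library and the groups side by side in the order ARID1A knockout, wild type, CAPH2 knockdown, shRNA control. TBK1 lies above 28.0 in every library, and no library of TLR3, STING1 or TREX1 exceeds the 0.926 of STING1 in a control library.

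Of the 8 genes, 1 rose and 2 fell in the ARID1A knockout, where 34.5% of all genes tested were called in either direction. In the CAPH2 knockdown 0 rose and 1 fell, where 15.8% of all genes were called. Those shares are near the background, so the count of calls after adjustment sets these genes apart in neither comparison. DESeq2 called 0 of them in the knockdown after adjustment. At an unadjusted p under 0.05, edgeR gave 4 of the 8 in the knockout and 3 in the knockdown. The share of all genes at that threshold was not computed, so these 2 counts have no background beside them. The median log2 fold change of the 8 genes was −0.17 in the knockout and 0.03 in the knockdown, against 0.00 over all genes tested in each. The median size of the change, without its sign, was 0.31 in the knockout for these genes and 0.31 for all genes, and 0.14 in the knockdown, against 0.21 for all genes.

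**Figure D2:**
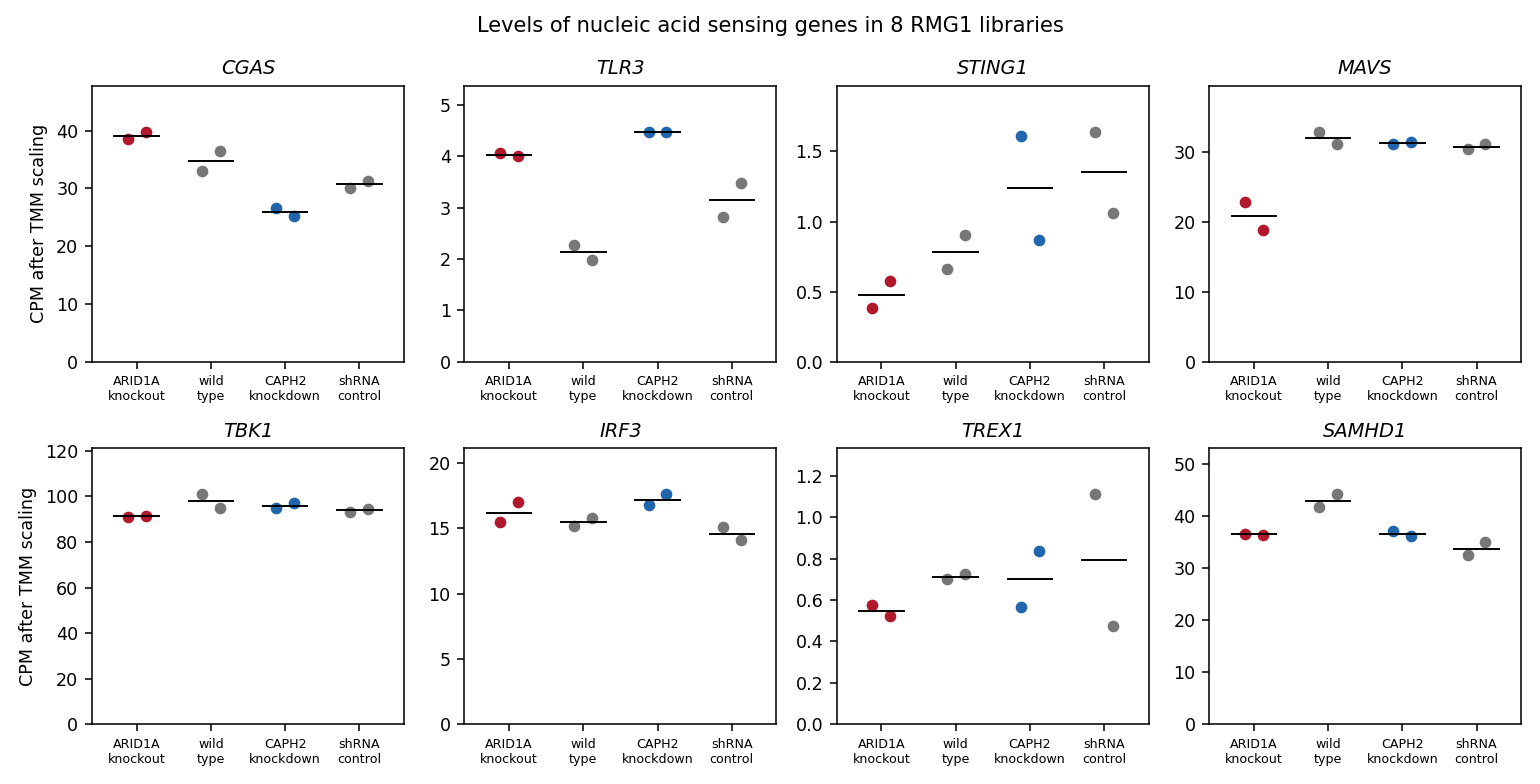
CPM of each gene in every library, with the mean of each group as a bar and axes that start at 0. TLR3 is higher in knockout than in wild-type libraries, MAVS is lowest in knockout libraries, and CGAS is highest in knockout and lowest in knockdown libraries.

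CGAS, the sensor of cytosolic DNA, was highest in the knockout and lowest in the knockdown. It had 38.5 and 39.8 CPM in knockout libraries, against 33.1 and 36.5 CPM in wild-type libraries. It had 26.6 and 25.3 CPM in knockdown libraries, against 30.1 and 31.3 CPM in shRNA control libraries. Neither pair of groups overlapped. Fewer cells with this RNA and less of it per cell cannot be told apart in bulk libraries, here or below. The log2 fold change in the knockout was 0.17 (SE 0.07, 95% interval 0.01 to 0.33), which did not pass the test after adjustment (edgeR adjusted p = 0.0977), although it did without wild-type library 2 (0.24, edgeR adjusted p = 0.0421). The fall in the knockdown was −0.25 (SE 0.07, 95% interval −0.41 to −0.08, edgeR adjusted p = 0.0448). This call lay close to the threshold: it was lost when any of the 4 knockdown and control libraries was left out (−0.29 to −0.21), with no filter on low counts, with DESeq2 (−0.24, adjusted p = 0.0983) and with a replicate block (−0.24, edgeR adjusted p = 0.0557). The knockout effect minus the knockdown effect was 0.41 (SE 0.10, edgeR adjusted p = 0.0120). This call was lost on leaving out knockout library 2 (0.39), control library 2 (0.39) or knockdown library 2 (0.38). Of the 8 genes, 1 was called higher and 2 lower for this difference between effects, against 26.3% of all genes tested in either direction.

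TLR3, the endosomal sensor of RNA, was the only gene of the set called higher in the knockout. It had 4.06 and 4.0 CPM in knockout libraries, against 2.27 and 1.99 CPM in wild-type libraries, resting on 148 and 153 counts against 55 and 55. In knockdown libraries it had 4.48 and 4.48 CPM, against 2.82 and 3.49 CPM in shRNA control libraries. The groups did not overlap in either comparison, and the knockdown libraries were the highest of all 8. The rise in the knockout was 0.92 (SE 0.20, 95% interval 0.48 to 1.35, edgeR adjusted p = 0.00392), which is 1.89-fold, and it kept its call under each of 10 alternatives (0.82 to 1.01). In the knockdown the value was 0.50 (SE 0.19, 95% interval 0.09 to 0.91) and did not pass (edgeR adjusted p = 0.0983), and the difference between both effects was 0.41 (95% interval −0.18 to 1.01, edgeR adjusted p = 0.308). A difference in response of TLR3 to the 2 perturbations was thus not shown. The adaptor behind TLR3, TICAM1, was low in all groups: 0.767 and 0.548 CPM in knockout, 0.413 and 0.471 CPM in wild-type, 0.820 and 0.419 CPM in knockdown and 0.650 and 1.06 CPM in shRNA control libraries.

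The promoters of the genes called in the knockout are shown because TLR3 and the other called genes differ there in base composition. Each stretch covers 250 bases before the RefSeq start and 25 bases from it, 5′ to 3′ on the strand of the gene, with letters that match the core of the interferon-stimulated response element (GAAA, then any 2 bases, then GAAA, on either strand) in capitals. TLR3 is shown at chr4:186068906-186069180 (plus strand), MAVS at chr20:3846584-3846858 (plus strand) and SAMHD1 at chr20:36951684-36951958 (minus strand), all from RefSeq on GRCh38.p14.
TLR3: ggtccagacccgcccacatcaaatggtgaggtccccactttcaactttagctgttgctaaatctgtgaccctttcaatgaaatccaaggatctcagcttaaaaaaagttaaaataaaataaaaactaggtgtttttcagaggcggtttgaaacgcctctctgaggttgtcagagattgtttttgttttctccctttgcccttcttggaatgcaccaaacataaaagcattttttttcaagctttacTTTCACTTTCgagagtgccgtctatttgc
MAVS: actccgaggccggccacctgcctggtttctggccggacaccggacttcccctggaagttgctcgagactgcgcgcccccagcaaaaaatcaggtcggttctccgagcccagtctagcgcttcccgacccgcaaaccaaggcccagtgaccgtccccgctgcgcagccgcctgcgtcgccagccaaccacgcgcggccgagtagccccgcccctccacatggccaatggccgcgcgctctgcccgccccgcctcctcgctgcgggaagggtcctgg
SAMHD1: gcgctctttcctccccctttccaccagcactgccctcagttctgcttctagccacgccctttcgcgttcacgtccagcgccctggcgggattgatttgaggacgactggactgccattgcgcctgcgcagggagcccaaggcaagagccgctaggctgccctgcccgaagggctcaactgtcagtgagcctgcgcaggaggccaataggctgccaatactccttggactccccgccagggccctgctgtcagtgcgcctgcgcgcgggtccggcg
The match in TLR3, TTTCACTTTC, is the core read from the other strand, and it spans the start, from base −4. Windows of 300 bases were available for 6 listed genes (IKBKE, TREX1, TLR3, TBK1, MAVS and SAMHD1), and TLR3 was the only one of them with this core. It was found in 3.65% of 27303 promoters of that length, and in 21 of 30 promoters of interferon-stimulated genes. The core TTCNNNGAA of the gamma-activated site, which reads alike on both strands and did not overlap the other match, occurred at 2 places in TLR3 and in none of the other 5, against 7.88% of all promoters. The TLR3 window held 40.3% G and C and 5 CG pairs, against 71.7% and 34 for MAVS, 65.7% and 22 for SAMHD1, and medians of 58.3% and 14 over all promoters. A match of letters describes a sequence and says nothing of whether a factor was bound.

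STING1, the adaptor that receives the signal of cGAS, was close to the limit of what these libraries can compare. It had 0.384 and 0.575 CPM in knockout libraries, against 0.661 and 0.905 CPM in wild-type libraries, which are 14 and 22 counts against 16 and 25. It had 1.61 and 0.871 CPM in knockdown libraries, against 1.64 and 1.06 CPM in shRNA control libraries. The knockout libraries were the lowest of all 8, without overlap with the wild type, while the knockdown and control libraries overlapped. Neither comparison passed: the log2 fold change was −0.71 in the knockout (SE 0.48, 95% interval −1.77 to 0.35, edgeR adjusted p = 0.294) and −0.12 in the knockdown (95% interval −1.06 to 0.82, edgeR adjusted p = 0.897). Both intervals hold a fall of more than 1 log2 unit, so a fall of that size was not excluded in either comparison. A rise of that size lies outside both.

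MAVS, the adaptor on mitochondria for the sensors of cytosolic RNA, fell in the knockout. It had 22.8 and 18.9 CPM in knockout libraries, against 32.9 and 31.1 CPM in wild-type libraries. In knockdown libraries it had 31.1 and 31.5 CPM, against 30.4 and 31.1 CPM in shRNA control libraries. The knockout libraries stood below all others, which lay between 30.4 and 32.9 CPM. The log2 fold change in the knockout was −0.62 (SE 0.09, 95% interval −0.81 to −0.42, edgeR adjusted p = 0.00026), and the call held under each of 10 alternatives (−0.75 to −0.49). In the knockdown it was 0.02 (95% interval −0.17 to 0.22, edgeR adjusted p = 0.897). The effects differed by −0.64 (SE 0.13, edgeR adjusted p = 0.00275), which also held under each of 13 alternatives.

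Genes that lie beside MAVS were lower in the knockout too. The 40 nearest tested genes on chromosome 20 had a median log2 fold change of −0.33, with 80.0% of them lower, and MAVS minus that median was −0.28. All 6 tested genes nearest to it, chosen by position after its value was known, were called lower (all genes: 17.8% lower). They were CENPB (−0.61), CDC25B (−0.65), AP5S1 (−0.57), PANK2 (−0.47), RNF24 (−1.74) and SMOX (−1.46). Between shRNA control and wild-type cells, PANK2 (−0.27), RNF24 (−0.42) and SMOX (−0.72) were called lower too. CENPB, CDC25B and AP5S1 were not called there. In the knockdown, the 40 neighbours had a median of 0.04, and of the 6 nearest AP5S1 was called higher (0.41), SMOX was called lower (−1.27) and 4 were not called. For TLR3, near the end of chromosome 4, the 32 available neighbours had a median of 0.25 in the knockout, and TLR3 minus that median was 0.67. Of its 6 nearest tested genes, 4 were called higher (all genes: 16.8% higher): C4orf47 (1.99), CCDC110 (2.66), PDLIM3 (1.15) and FAM149A (0.44). RPSAP70 (0.82) and CYP4V2 (−0.12) were not called. The part of such stretches in the results for TLR3 and MAVS was not tested.

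**Figure D3:**
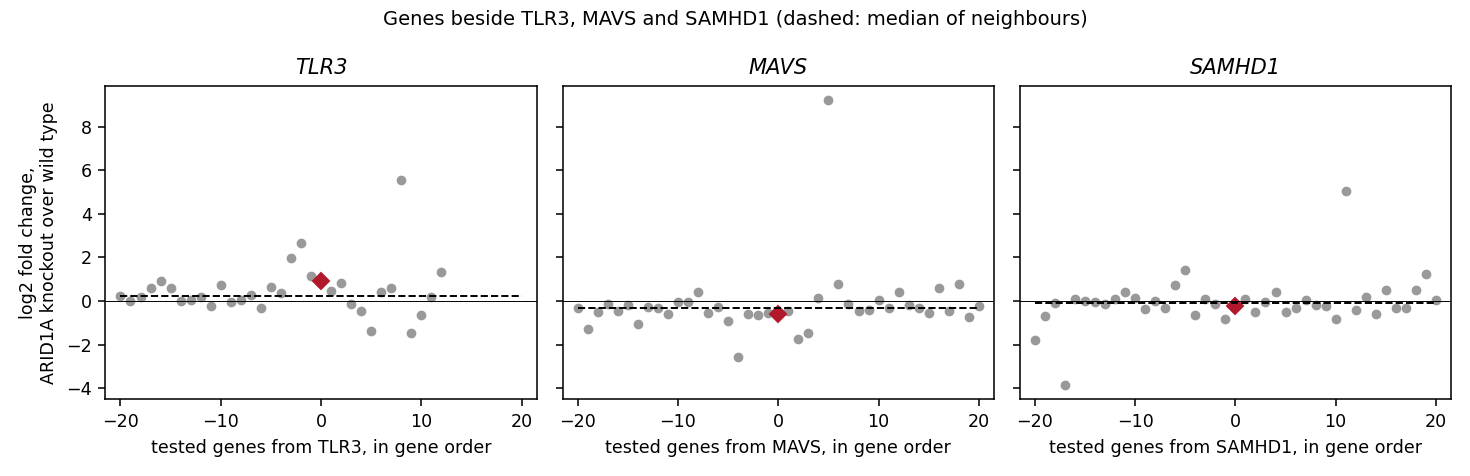
Log2 fold change of ARID1A knockout over wild type for TLR3, MAVS and SAMHD1 (diamonds) and for up to 20 tested genes on each side in gene order (grey), with the median of the neighbours as a dashed line. The medians are 0.25, −0.33 and −0.08, and MAVS sits among neighbours that are mostly lower.

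TBK1, the kinase on which the branches converge, was called in neither comparison. It had 91.2 and 91.5 CPM in knockout libraries, against 100.9 and 95.1 CPM in wild-type libraries, and 94.8 and 97.2 CPM in knockdown libraries, against 93.3 and 94.5 CPM in shRNA control libraries. Its log2 fold changes were −0.10 in the knockout (SE 0.05, 95% interval −0.22 to 0.02, edgeR adjusted p = 0.184) and 0.03 in the knockdown (SE 0.05, 95% interval −0.09 to 0.15, edgeR adjusted p = 0.759). TBK1 had the highest counts of the set, and these are its narrowest intervals.

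IRF3, the transcription factor that TBK1 phosphorylates, had 15.5 and 17.0 CPM in knockout libraries, against 15.2 and 15.8 CPM in wild-type libraries, which overlapped. It had 16.8 and 17.6 CPM in knockdown libraries, against 15.1 and 14.1 CPM in shRNA control libraries, which did not. The log2 fold change was 0.06 in the knockout (SE 0.09, 95% interval −0.14 to 0.27, edgeR adjusted p = 0.642) and 0.24 in the knockdown (SE 0.09, 95% interval 0.03 to 0.44, edgeR adjusted p = 0.114). Neither passed after adjustment. IRF3 overlaps BCL2L12 on the opposite strand, and without a stated strand setting reads of the overlap cannot be told apart. BCL2L12 was at 6.44 and 6.48 CPM in knockout and 5.21 and 5.98 CPM in wild-type libraries, and at 6.90 and 5.87 CPM in knockdown and 8.11 and 6.28 CPM in shRNA control libraries.

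TREX1, the exonuclease that removes DNA from the cytosol, was as sparse as STING1. It had 0.576 and 0.522 CPM in knockout libraries, against 0.703 and 0.724 CPM in wild-type libraries, and 0.567 and 0.838 CPM in knockdown libraries, against 1.11 and 0.475 CPM in shRNA control libraries. The control libraries alone spanned the values of all other groups. Its log2 fold changes were −0.38 in the knockout (SE 0.52, 95% interval −1.52 to 0.77) and −0.17 in the knockdown (SE 0.51, 95% interval −1.28 to 0.94), and neither passed (edgeR adjusted p = 0.627 and 0.875). TREX1 lies inside the longer gene ATRIP on the same strand, at 12.9 and 13.3 CPM in knockout, 13.9 and 12.9 CPM in wild-type, 9.27 and 9.54 CPM in knockdown and 10.8 and 10.9 CPM in shRNA control libraries, so the split of reads between these genes is uncertain.

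SAMHD1, the enzyme that hydrolyses deoxynucleotides, was highest in wild-type cells. It had 36.6 and 36.4 CPM in knockout libraries, against 41.7 and 44.1 CPM in wild-type libraries, with no overlap. It had 37.0 and 36.2 CPM in knockdown libraries, against 32.4 and 35.0 CPM in shRNA control libraries. The fall in the knockout was −0.24 (SE 0.07, 95% interval −0.38 to −0.09, edgeR adjusted p = 0.0184), while the knockdown value of 0.12 (SE 0.07, 95% interval −0.03 to 0.27) did not pass (edgeR adjusted p = 0.293). The knockout call was lost with DESeq2 (−0.23, adjusted p = 0.0546) and without wild-type library 2 (−0.19), knockout library 1 (−0.24) or knockout library 2 (−0.23). The effects differed by −0.35 (SE 0.10, edgeR adjusted p = 0.0179), which no longer passed without knockout library 1 (−0.36), knockout library 2 (−0.35), control library 1 (−0.30) or knockdown library 1 (−0.33). TLDC2, which overlaps SAMHD1 on the opposite strand, had at most 11 counts in a library.

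**Figure D4:**
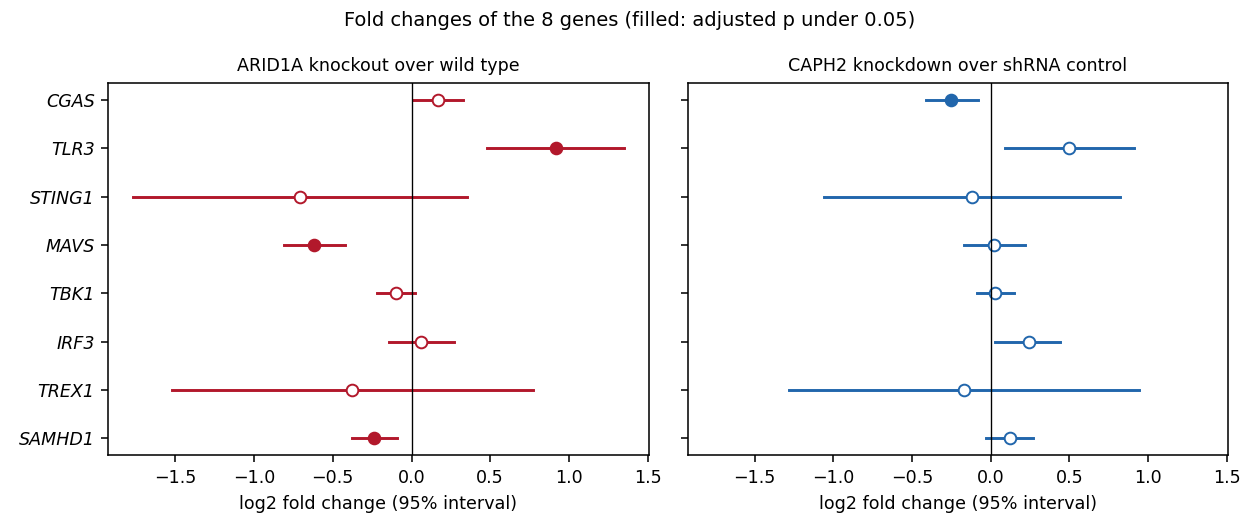
Log2 fold change of each gene in the ARID1A knockout over wild type and in the CAPH2 knockdown over shRNA control, with 95% intervals from the fit and filled points where the adjusted p was under 0.05. TLR3, MAVS and SAMHD1 are filled in the knockout and CGAS in the knockdown, and STING1 and TREX1 have the widest intervals.

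The control shRNA cells and the wild-type cells were themselves not alike. Of the 8 genes, 1 was called between them, against 19.2% of all genes tested (9.13% higher and 10.1% lower): SAMHD1 was lower in shRNA control than in wild-type cells (−0.35, SE 0.07, edgeR adjusted p = 0.00448). Without control library 1 the value was −0.29 and did not pass. TLR3 was at 2.82 and 3.49 CPM in shRNA control libraries and 2.27 and 1.99 CPM in wild-type libraries (0.57, SE 0.20, edgeR adjusted p = 0.0732). CGAS had a value of −0.18 (SE 0.07, edgeR adjusted p = 0.116) and was called without wild-type library 1 (−0.25, edgeR adjusted p = 0.0450). This comparison uses the same wild-type libraries as the knockout comparison and the same control libraries as the knockdown comparison. MAVS, IRF3 and TBK1 had values of −0.06, −0.09 and −0.06 between these groups, and none of them was called.

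The genes whose log2 CPM followed each called gene most closely over the 8 libraries were picked by Pearson's r, which here describes 4 pairs of libraries that share a group. For TLR3 they were HACL1 (r = 0.986), ICAM1 (0.975) and TIPARP (0.969). For MAVS they were FAM210B (0.994), BEND6 (0.988) and FMNL1 (0.987), for CGAS AMMECR1 (0.995), EIF1 (0.994) and CELF1 (0.991), and for SAMHD1 MED6 (0.979), IKBKB (0.975) and NIPBL (0.971).

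Other genes of the pathway went both ways in the knockout. Among other nucleic acid sensors, 4 of 12 tested genes rose and 4 fell in the knockout, against 16.8% higher and 17.8% lower over all genes tested. RIGI, which encodes RIG-I, fell to 21.8 and 22.9 CPM in knockout libraries, against 30.0 and 31.9 CPM in wild-type libraries (−0.47, SE 0.08), and was thus lower together with its adaptor MAVS. IFIH1, which encodes MDA5, the other sensor that signals through MAVS, rose (0.69, SE 0.12, edgeR adjusted p = 0.00114). IFI16, a DNA-binding protein linked to STING, fell to 4.91 and 3.47 CPM in knockout libraries, against 10.9 and 11.4 CPM in wild-type libraries (−1.42, SE 0.16), and POLR3G, a subunit of RNA polymerase III, rose (1.06, SE 0.12). In the knockdown 2 of the 12 rose and 0 fell, against 7.62% higher and 8.22% lower over all genes tested. They were IFI16 (0.57, SE 0.15), a call lost without any 1 of the knockdown or control libraries (0.49 to 0.64), and RIGI (0.40, SE 0.08), a call lost without control library 2 (0.34) or knockdown library 1 (0.31). IFI16 was at 12.3 and 11.1 CPM in knockdown libraries, against 8.29 and 7.51 CPM in shRNA control libraries. It was called lower in shRNA control than in wild-type cells, so its knockdown level was near that of the wild type.

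Among adaptors, kinase partners and ubiquitin ligases, 4 of 23 rose and 6 fell in the knockout, and 1 rose and 1 fell in the knockdown. Over all genes tested, 16.8% were higher and 17.8% lower in the knockout, and 7.62% higher and 8.22% lower in the knockdown. The 6 falls in the knockout were somewhat above that background, and the other counts were near or below it. TBKBP1, a scaffold that binds TBK1, was at 4.17 and 6.06 CPM in knockout libraries, against 12.3 and 15.8 CPM in wild-type libraries (−1.45, SE 0.17), although TBK1 itself was not called. TANK, another partner of TBK1, rose in the knockout to 60.5 and 59.9 CPM, against 47.0 and 47.2 CPM in wild-type libraries. It also rose in the knockdown (0.28, SE 0.06), a call lost without control library 1 (0.25) or knockdown library 1 (0.23). The largest rise by the rule in the knockout was that of RNF5, a ubiquitin ligase of STING (0.61, SE 0.13), which has a pseudogene copy and is uncertain. TRAF3, an adaptor between MAVS and TBK1, fell in both comparisons: by 0.39 in the knockout (SE 0.07), held under each of 10 alternatives, and by 0.30 in the knockdown (SE 0.07). Leaving out control library 1 (−0.30), control library 2 (−0.30) or knockdown library 2 (−0.25) ended the knockdown call.

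Among nucleases and genes of nucleic acid clearance, 3 of 14 rose and 1 fell in the knockout (all genes: 16.8% higher, 17.8% lower), and 4 rose and 0 fell in the knockdown (all genes: 7.62% higher, 8.22% lower). ENPP1, which degrades cGAMP outside cells, was at 2.63 and 2.87 CPM in knockout libraries, against 0.496 and 0.797 CPM in wild-type libraries (2.07, SE 0.33). It was at 3.25 and 2.03 CPM in knockdown and 2.41 and 2.18 CPM in shRNA control libraries. ENPP1 was thus low in wild-type cells alone, and it was also called higher in shRNA control than in wild-type cells. ATM, a kinase of the DNA damage response, fell to 120.3 and 122.6 CPM in knockout libraries, against 242.4 and 246.0 CPM in wild-type libraries. ATM rose in the knockdown (0.58, SE 0.05). Of genes of STING trafficking and turnover, 2 of 14 rose and 5 fell in the knockout, and 3 rose and 1 fell in the knockdown, against the same shares of all genes. STIM1, which holds STING at the endoplasmic reticulum, fell in the knockout (−0.98, SE 0.07) and rose in the knockdown (0.35, SE 0.07), where the call was lost without control library 1 (0.32) or knockdown library 2 (0.31). NPC1, a lysosomal cholesterol transporter, rose in the knockout (0.90, SE 0.07) and fell in the knockdown (−0.53, SE 0.07). The control groups of these comparisons differed for the same genes: ATM and STIM1 were called lower, and NPC1 higher, in shRNA control than in wild-type cells.

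Transcripts of the interferon genes on the list, among them IFNB1, the interferon beta gene that IRF3 turns on, were nearly all undetected. Other interferon genes were not looked up. IFNB1, IFNA1, IFNA2, IFNK, IFNL1, IFNL2, IFNL3 and IFNG had 0 counts in all 8 libraries, which allows up to 3 counts, or 0.0783 to 0.124 CPM per library, from counting error alone. IFNE, an interferon made by epithelium of the reproductive tract, was the exception, with 0.987 and 0.731 CPM in knockout libraries, against 1.41 and 1.05 CPM in wild-type libraries, and 1.48 and 1.97 CPM in knockdown libraries, against 1.11 and 0.531 CPM in shRNA control libraries. It was called in neither comparison. Of the 15 tested genes among interferons, their receptors and JAK-STAT, 1 rose and 5 fell in the knockout (all genes: 16.8% higher, 17.8% lower), and 6 rose and 1 fell in the knockdown (all genes: 7.62% higher, 8.22% lower). IRF9, the DNA-binding part of the factor that acts on interferon-stimulated genes, was at 17.4 and 16.0 CPM in knockdown libraries, against 11.1 and 9.97 CPM in shRNA control libraries (0.67, SE 0.13), a call lost without control library 2 (0.59) or knockdown library 1 (0.59). SOCS3, an inhibitor of JAK signalling, fell in the knockout (−1.08, SE 0.05). JAK1 was the one that fell in the knockdown (−0.37, SE 0.05).

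The list of interferon regulatory factors other than IRF3, which also holds the corepressors IRF2BP1 and IRF2BP2, had 2 rises and 4 falls among 9 in the knockout, where 16.8% of all genes were higher and 17.8% lower. It had 0 rises and 1 fall in the knockdown, where 7.62% were higher and 8.22% lower, and that fall was of a corepressor. IRF8 (0.88, SE 0.10) rose and IRF1 (−1.28, SE 0.25) fell in the knockout, and IRF2BP2, that corepressor, fell in the knockdown (−0.40, SE 0.09), though not on leaving out control library 2 (−0.30) or knockdown library 1 (−0.35). Interferon-stimulated genes had 8 rises and 6 falls among 27 in the knockout, and 14 rises and 1 fall in the knockdown. Against the same shares of all genes, the falls were near or below the background, and the rises, most of all those in the knockdown, were above it. Among those with a mean of at least 1 CPM, the largest rise in the knockout was that of IFITM1 (2.22, SE 0.16), which has near-identical relatives and is uncertain, and the largest fall was that of IFI6 (−2.19, SE 0.17). The median log2 fold change of the list was 0.47 in the knockout, although its summed level was 380.7 to 381.2 CPM in knockout libraries, against 407.1 to 408.5 CPM in wild-type libraries. In the knockdown the median was 0.79 and the sum was 584.3 to 597.8 CPM in knockdown libraries, against 413.4 to 425.8 CPM in shRNA control libraries. Between shRNA control and wild-type cells, 8 of the 27 were called higher and 2 lower, with a median of 0.42 (all genes: 9.13% higher, 10.1% lower). The same count of rises over wild type was thus also seen in cells without the knockout. The rises in the knockdown were led by MX1 (3.06, SE 0.35), and HERC5 was the gene that fell (−0.30, SE 0.08). HERC5 no longer passed on leaving out control library 2 (−0.18) or either knockdown library (−0.33 and −0.28). Of the 8 sensing genes with a row, CGAS fell in the knockdown and the other 7 did not pass the test. Among the other sensors and the adaptors and partners, IFI16, RIGI and TANK rose and TRAF3 fell, as given above.

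The counts of these short lists moved with single libraries. In the knockdown, the lowest counts of rises over 10 alternatives were 0 for the other sensors and 2 for JAK-STAT, both without control library 2. They were 0 for adaptors and partners, 2 for nucleases, 1 for STING trafficking and 9 for interferon-stimulated genes, all without control library 1. In the knockout, the lowest counts of falls were 2 for the other sensors and 3 for interferon-stimulated genes without wild-type library 2, and 3 for adaptors and partners without knockout library 1. Without knockout library 2 they were 3 for STING trafficking and 2 for JAK-STAT, and with only the 4 libraries of the comparison they were 2 for the regulatory factors.

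**Figure D5:**
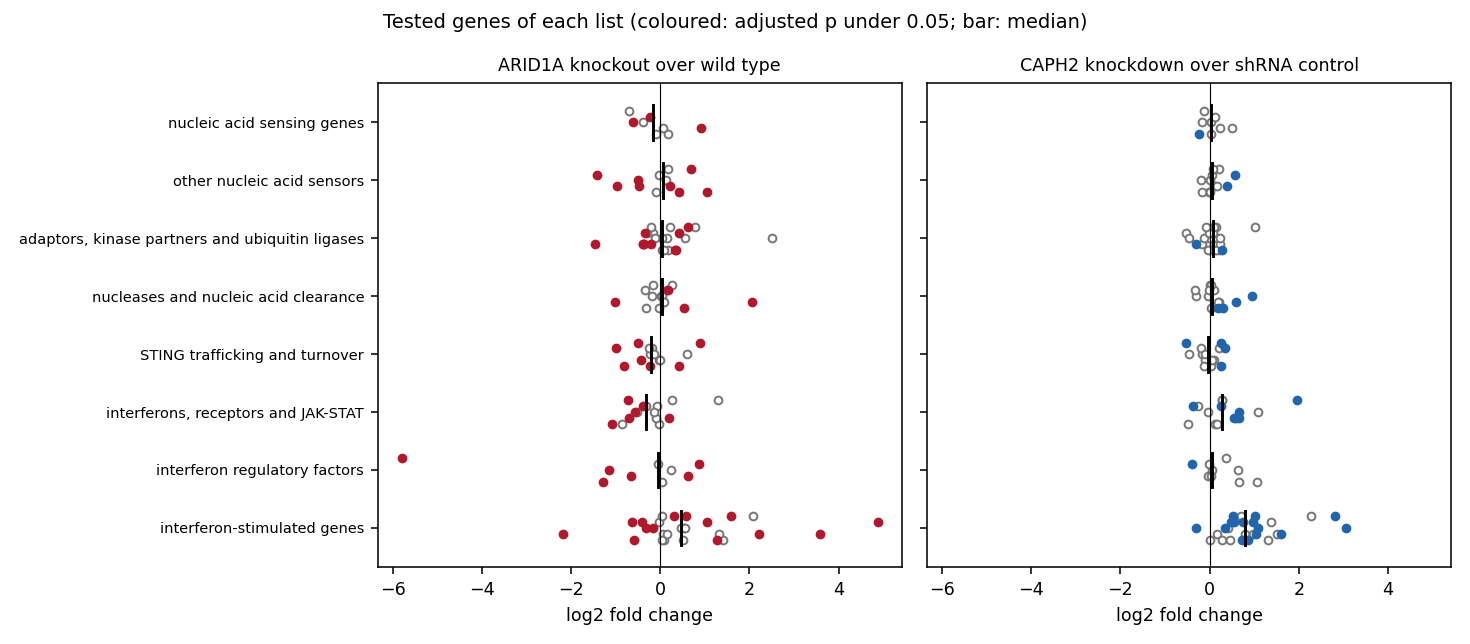
Log2 fold changes of the tested genes of each list in the ARID1A knockout over wild type and in the CAPH2 knockdown over shRNA control, with called genes coloured and the median of each list as a bar. In the knockdown the interferon-stimulated genes have a median of 0.79, while the nucleic acid sensing genes have a median of 0.03.

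Markers of other cell types were low. The 12 leukocyte markers summed to 5.33 to 6.41 CPM in knockout libraries, against 3.55 to 5.0 CPM in wild-type libraries, and to 3.47 to 4.87 CPM in knockdown libraries, against 5.20 to 6.23 CPM in shRNA control libraries. CD3E, SPI1 and MS4A1 were at 0 counts in all of them, and 5 of the 12 could be tested, of which 1 rose and 2 fell in the knockout. PTPRC, the CD45 gene, was at 2.25 and 1.98 CPM in knockout libraries, against 0.0413 and 0.00 CPM in wild-type libraries. CD14, a monocyte marker, was at 0.0274 and 0.00 CPM in knockout libraries, against 0.372 and 0.435 CPM in wild-type libraries, and CSF1R, a macrophage marker, at 0.493 and 0.548 CPM, against 1.90 and 2.21 CPM. CSF1R also fell in the knockdown, to 0.788 and 1.29 CPM, against 2.23 and 2.26 CPM in shRNA control libraries. The 8 fibroblast markers summed to 1.10 to 1.12 CPM in knockout libraries and 0.435 to 0.496 CPM in wild-type libraries, with COL1A2 and COL3A1 at 0 counts in all 8 libraries, and the 5 matched endothelial markers to at most 1.03 CPM in any library. Their part in the results was not tested.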

How the data were processed

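Per the labels' protocols, RNA isolated with Trizol was digested with DNase I, and libraries came from a TruSeq Total RNA kit. The table that the authors deposited gives expected counts for each Ensembl gene in each library. They came from RSEM 1.2.12 and Bowtie2 on hg19, per the submitters' processing notes, with no strand setting or annotation release stated there. All of these expected counts were whole, so none was rounded. RSEM shares reads among genes that they match, so overlapping genes and near-identical copies are uncertain.

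Symbols came from a name table of Ensembl IDs, and for 342 IDs from GENCODE 29. GENCODE 29 on GRCh38 also gave gene order and transcript lengths (longest APPRIS principal transcript), and no hg19 coordinate was used. The counts went into edgeR 4.0.16 (R 4.3.3): filterByExpr by group, TMM scaling, and quasi-likelihood F-tests on 1 fit of group means to all 8 libraries (4 residual degrees of freedom, common biological coefficient of variation 7.74%). Intervals are 95% intervals of the fit. The fit was tested on simulated data. Alternatives were other scaling, DESeq2 1.42.0, other filters, fits of 4 libraries, a replicate block and leaving out each library.

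The members and gene lists were chosen with earlier results of these data known. Apart from the 9 members, ARID1A and NCAPH2, the rule took, per list and comparison, up to 2 called genes with the largest rise and 2 with the largest fall at a mean of at least 1 CPM; the leading gene of each direction is given with values. RIGI in both comparisons, TANK, IFIH1 and TRAF3 in the knockout, TICAM1, IFNE, PTPRC, CD14 and CSF1R are also given, chosen after their values were seen. Of the genes on the lists, 5 had no matched row, among them IKBKE, IKBKG, CCL5 and PECAM1. Some genes that the rule took are not reported here.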

Additional observations from a re-analysis of the deposited data

How the results depend on the processing

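Of 340 values of the 8 genes under the alternatives, 311 kept their direction and their side of the threshold, 19 lost a call, 2 gained one and 8 changed sign. The changes of sign were in values that were never called: IRF3 in the knockout without knockout library 2 (0.00, range on leaving out a library 0.00 to 0.13), STING1 in the knockdown without control library 1 (0.22) or knockdown library 2 (0.25, range −0.64 to 0.25), TREX1 in the knockdown without control library 1 (0.56) or knockdown library 1 (0.08, range −0.66 to 0.56), TREX1 in the difference between effects without control library 2 (0.29) or knockdown library 2 (0.10, range −0.94 to 0.29), and TREX1 between shRNA control and wild type without control library 1 (−0.58, range −0.58 to 0.64). The calls of TLR3 and MAVS in the knockout held throughout. In the knockdown, the count of called members was 0 in place of 1 with DESeq2, with no filter on low counts and with a replicate block, and 0 (lowest and highest) when any library was left out; the cause was not tested. Leaving out a library gave 1 to 3 called members for the difference between effects, and 0 to 2 between shRNA control and wild type. It left 1360 to 1524 of all genes called in the knockdown, against 2639 with all libraries, where fewer samples entered the fit. Same-numbered libraries were not shown to be pairs: the correlations of their replicate differences across genes were 0.084 for knockout and wild type and −0.057 for knockdown and shRNA control. With the replicate block 5500 genes were called in the knockout and 2483 in the knockdown, against 5751 and 2639 without it, and CGAS in the knockdown was the only member whose call changed. With lengths taken as the union of all exons, added after the data were seen, STING1 ranked 8 and TREX1 7 by level per kilobase, in place of 7 and 8. Counts of 14 to 53 for STING1 and 17 to 36 for TREX1 limit what can be said of both.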
